A study of Mus musculus with 14 samples.

Results

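The response of Tet1/2 double-knockout (DKO) mouse embryonic stem (ES) cells to their first 24 h of mTOR inhibition was measured by RNA sequencing in 4 of the 14 libraries of the series, 2 at 0 h and 2 at 24 h. The members were taken by their labels alone, as the libraries of the E14 TET1/2 DKO line at these time points, and no measured value entered the choice. E14 is a mouse ES cell line, and both the DKO line and its wild-type parent were kept without feeder cells on gelatin in medium with serum and LIF. The DKO line was derived from wild-type E14 cells with Cas9 and guides at both ends of Tet1 and Tet2, followed by sorting of single cells, so that it stands for 1 clone. At 0 h the cells had received no inhibitor, and at 24 h they had spent that time in an mTOR inhibitor. The paper names INK128 or RapaLink-1 for ES cells or embryos, and INK128 for its ES cell growth curves. It does not say which was used for these libraries. Wild-type E14 cells at the same time points, 2 libraries each, were used to test where the DKO response differed. All 14 libraries entered the fit and so shared in the estimate of the spread. Viable cells were sorted, synthetic ERCC transcripts were added to the RNA, ribosomal RNA was depleted and total RNA was sequenced.

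The kinase mTOR joins nutrient and growth factor signals to protein, lipid and nucleotide synthesis. When it is active it raises translation and activity of ATF4, a transcription factor for amino acid synthesis and uptake, and of SREBP and HIF1, which serve lipid synthesis and glycolysis. It also holds TFEB and TFE3, factors for lysosomal genes, in the cytoplasm, and through S6 kinase it dampens insulin signalling, which in turn restrains the FOXO factors. TET enzymes oxidise 5-methylcytosine and so oppose DNA methylation, and mTOR inhibition places ES cells and blastocysts in a paused, diapause-like state.

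The data are read on a pair of scales. Deposited TPM, a transcript abundance corrected for length and library total, sum to 1000000 in every library and therefore give the share of a gene in the RNA of its library. Spike-in normalized TPM are these values times 1 factor per library, taken from the synthetic transcripts, and follow the amount of RNA per unit of added ERCC mix. Below, rose and fell refer to deposited TPM where no scale is named, and log2 fold changes are differences of log2(value + 1) between 24 h and 0 h with their standard error (SE), n = 2 libraries per group. P values come from limma and are adjusted over all 18232 genes tested, with 0.05 as the threshold.

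Promoter sequence is shown for 7 genes picked, with their values known, among those that hold a match. They are 4 genes of the ATF4 list that fell, Asns, which was not called on deposited TPM, and a lysosomal and a FOXO list gene that rose. They are shown since ATF4 and TFE3 bind short elements close to gene starts. The C/EBP-ATF response element was searched as TGATGNAA and the CLEAR element of TFE3 as TCACGTGA, on both strands of the 250 bases before the RefSeq start (RefSeq, GRCm38.p6). TGATGNAA was found in 7 of 26 genes of the ATF4 list, in 3 of 12 aminoacyl-tRNA synthetases and in 3.91% of all 27025 genes of the table. It was also found in 4 of 43 genes of the lysosome list, and in 2.3% of the genes tested. Counts of lists and of genes tested in this paragraph cover only genes with a promoter sequence, 10908 of those tested. TCACGTGA was found in 7 of 43 genes of the lysosome list, in 2 of 12 synthetases, in 0.907% of all genes and in 1.69% of the genes tested. A forkhead element, GTAAACA, was found in 4 of 26 genes of the FOXO list, in 3.54% of all genes and in 2.74% of the genes tested. Pycr1 is an enzyme of proline synthesis. The lines give the bases before the start up to the first annotated exon, or 30 bases around the match where it lay inside an annotated exon, with the match in capitals.

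Nupr1, chr7:126625562-126625591, minus strand, C/EBP-ATF response element: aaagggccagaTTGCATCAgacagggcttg
Chac1, chr2:119350992-119351228, plus strand, C/EBP-ATF response element: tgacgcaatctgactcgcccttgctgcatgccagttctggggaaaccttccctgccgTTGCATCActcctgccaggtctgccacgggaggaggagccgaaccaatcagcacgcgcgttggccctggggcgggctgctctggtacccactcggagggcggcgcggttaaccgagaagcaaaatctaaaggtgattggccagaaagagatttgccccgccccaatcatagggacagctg
Pck2, chr14:55540016-55540265, plus strand, C/EBP-ATF response element: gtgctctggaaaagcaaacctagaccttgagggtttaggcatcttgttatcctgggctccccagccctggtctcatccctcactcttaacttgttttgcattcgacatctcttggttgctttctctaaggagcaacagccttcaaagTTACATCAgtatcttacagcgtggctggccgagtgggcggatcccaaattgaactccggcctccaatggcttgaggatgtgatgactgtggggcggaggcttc
Pycr1, chr11:120643770-120643998, minus strand, C/EBP-ATF response element: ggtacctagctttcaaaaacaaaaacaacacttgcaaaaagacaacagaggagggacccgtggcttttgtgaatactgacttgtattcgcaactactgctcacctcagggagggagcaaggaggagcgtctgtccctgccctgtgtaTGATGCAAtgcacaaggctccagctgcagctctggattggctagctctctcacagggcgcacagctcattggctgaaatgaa
Asns, chr6:7693214-7693243, minus strand, C/EBP-ATF response element: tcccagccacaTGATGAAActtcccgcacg
Mcoln1, chr8:3500462-3500491, plus strand, CLEAR element: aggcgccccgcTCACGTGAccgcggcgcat
Crebrf, chr17:26715400-26715649, plus strand, CLEAR element: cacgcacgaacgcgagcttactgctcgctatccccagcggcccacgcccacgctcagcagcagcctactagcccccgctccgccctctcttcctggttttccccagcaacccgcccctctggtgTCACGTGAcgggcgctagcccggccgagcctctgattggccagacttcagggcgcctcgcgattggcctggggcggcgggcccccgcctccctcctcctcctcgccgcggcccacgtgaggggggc

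Of the 7 genes of the ATF4 list with the element, 5 fell in DKO cells at 24 h and Asns and Atf3 did not pass the test. Of the 7 lysosomal genes with the CLEAR element, 4 rose, Atp6v1a fell and 2 did not pass, while both synthetases with it, Aars and Farsb, fell. Of the 4 FOXO list genes with the forkhead element Txnip rose and 3 did not pass. A match is a sequence of these letters and no measurement of binding.

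The targeted genes were checked first. Tet2, at 19.14 and 22.2 TPM at 0 h and 15.9 and 20.0 at 24 h in DKO cells, was far below its 99.7 and 96.0 TPM at 0 h and 115 and 110 at 24 h in wild-type cells. Tet1 was not lowered in the same way, at 152 and 147 TPM at 0 h and 195 and 176 at 24 h in DKO cells and 197 and 191 TPM at 0 h and 274 and 255 at 24 h in wild-type cells. A value per gene cannot tell reads inside from reads outside a deleted stretch. The paper checked the knockout otherwise, by PCR screening of clones and western blots for TET1 and TET2. Tet1 rose in DKO cells on deposited TPM (log2 fold change 0.31 ± 0.09, adjusted p = 0.0243) and was not called on the spike-in scale (-0.26 ± 0.29). Tet3, the intact family member, measured 8.18 and 7.23 TPM at 0 h and 10.5 and 11.02 at 24 h and also rose (0.44 ± 0.13, adjusted p = 0.0275), and its spike-in change was -0.08 ± 0.33. Both calls rested on single libraries: Tet1 was no longer called without DKO 0 h replicate 1, DKO 0 h replicate 2 or DKO 24 h replicate 1, and Tet3 without DKO 0 h replicate 2, DKO 24 h replicate 1 or DKO 24 h replicate 2. With the replicate numbers as a block Tet2 was called lower on the spike-in scale (-0.76, adjusted p = 0.00909).

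Of 14 ES cell markers 13 were measured and 1, Fut4, stayed below 1 TPM in all 4 libraries. The 14 summed to 6579 and 6828 TPM at 0 h and to 5733 and 6184 TPM at 24 h, lower in both treated libraries. Of 12 fibroblast and feeder markers, 7 stayed below 1 TPM in all 4 libraries, namely Col1a1, Col1a2, Col3a1, Dcn, Lum, Postn and Prrx1. The sum of that list was 254 and 341 TPM at 0 h and 625 and 709 TPM at 24 h, nearly all of it Fn1, fibronectin, at 240 and 318 TPM at 0 h and 619 and 693 at 24 h. The libraries were 4 files of 54446 gene identifiers, of which 29059 to 29246 were above 0. The number of reads behind them is not known from TPM, so precision was taken from the spread between the 2 libraries of each group, pooled over the 7 groups.

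The RNA content of DKO cells, as read from the spike-in factors, was lower at 24 h. The untreated libraries had factors of 2.81 and 2.38, the treated ones 2.24 and 1.36. Both treated libraries lay below both untreated ones. The ratio of 24 h to 0 h was 0.794 between the libraries numbered 1 and 0.571 between those numbered 2, or 20.6% and 42.9% lower. With 2 libraries against 2 the exact two-sided permutation test gave p = 0.333, the smallest it can give. The paper states that RNA was taken from a fixed number of sorted cells per sample. In bulk libraries, a change in the mix of cells and less RNA per cell cannot be told apart, for this factor as for each gene below.

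**Figure D1:**
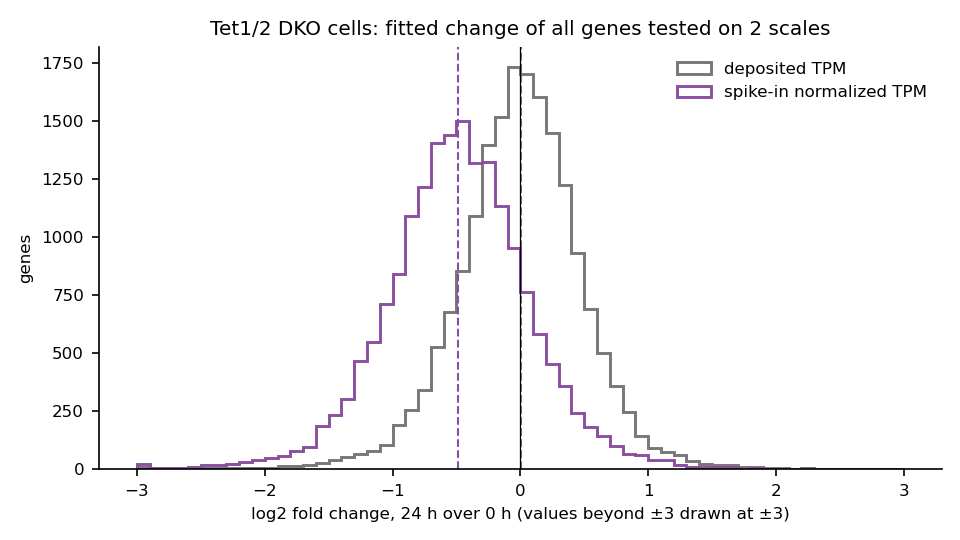
Histogram of the fitted log2 fold change, 24 h over 0 h, of the 18232 genes tested in Tet1/2 DKO cells, on deposited TPM (grey) and on spike-in normalized TPM (purple), with dashed lines at the medians. The deposited distribution is centred at 0.01 and the spike-in distribution lies 0.49 to the left of 0.

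This factor moved all genes together. The median log2 fold change was -0.49 on the spike-in scale and 0.01 on deposited TPM, and this shift bears on every gene below. On the spike-in scale 83.0% of genes were fitted below 0, against 49.5% on deposited TPM. On the spike-in scale 92 genes were called higher (0.505% of those tested) and 3408 lower (18.7%). With the replicate numbers as a block these counts were 356 and 6943, and after centring each library on its median they were 2051 and 2996. Spike-in counts for the lists below are to be read beside these. With the block none of the 50 gene lists lost calls in number, and the count of lower genes on the spike-in scale moved by over 1.5 times in 28 of them. The spike-in counts rested on single libraries. That of lower genes was 8705 without DKO 24 h replicate 1 (median -0.85) and 975 without DKO 24 h replicate 2 (median -0.13). It was 760 without DKO 0 h replicate 1 and 1640 without DKO 0 h replicate 2. The count of higher genes was 48, 28, 52 and 181 without DKO 0 h replicates 1 and 2 and DKO 24 h replicates 1 and 2, in this order. On deposited TPM, 2109 genes rose (11.6%) and 2426 fell (13.3%). Fitted on the 4 DKO libraries alone, the counts were 391 and 725 on deposited TPM and 12 and 519 on the spike-in scale. The split was 3044 against 1696 when TPM were rescaled to nuclear protein-coding genes, an alternative chosen after the data were seen. Protein-coding genes held 67.2% and 73.1% of TPM at 0 h and 62.3% and 65.2% at 24 h. Of the deposited counts, that of higher genes was 1303 without DKO 0 h replicate 1, 1289 without DKO 0 h replicate 2 and 1300 without DKO 24 h replicate 1, and that of lower genes was 1388 without DKO 0 h replicate 2. On both scales 89 genes were higher and 2377 lower. Called by spike-in values alone, 3 genes were higher and 1031 lower, and 49 were lower on deposited TPM alone. A further 2020 rose on deposited TPM without a call on the spike-in scale, of which 611 were fitted below 0 there, and 0 genes were called in opposite directions.

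The ATF4 list of amino acid stress genes had the lowest median of the 50 lists. Of the 30 measured members of the ATF4 list, 26 fell, 0 rose and 4 did not pass, with a median log2 fold change of -1.35 against 0.01 for all genes. The spike-in scale called 28 lower. Nupr1, a small stress-induced chromatin protein, measured 30.8 and 28.6 TPM at 0 h and 0.470 and 0.0183 at 24 h. Both treated libraries were near 0, and the log2 fold change was -4.65 ± 0.28 (adjusted p = 1.88e-05), the most negative value of the genes named by rule, with -5.75 ± 0.42 on the spike-in scale. Chac1, which degrades glutathione, measured 21.4 and 16.5 TPM at 0 h and 0.818 and 0.484 at 24 h, again without overlap (-3.59 ± 0.23, adjusted p = 2.41e-05). Mthfd2, the mitochondrial enzyme of folate metabolism, measured 108 and 98.8 TPM at 0 h and 8.24 and 9.42 at 24 h (-3.41 ± 0.11, adjusted p = 2.15e-07). Trib3, a pseudokinase induced by ATF4, measured 28.0 and 23.1 TPM at 0 h and 3.77 and 2.12 at 24 h (-2.78 ± 0.25). For these 4 genes the lowest untreated library was several times the highest treated one.

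Atf4 itself fell from 253 and 256 to 81.8 and 87.0 TPM (-1.58 ± 0.08, adjusted p = 1.87e-05). Its targets in serine and proline synthesis fell too. Psat1, an enzyme of serine synthesis, measured 282 and 238 TPM at 0 h and 58.3 and 45.8 at 24 h (-2.30 ± 0.15). Aldh18a1, the first enzyme of proline synthesis, measured 57.1 and 44.5 TPM at 0 h and 12.4 and 11.3 at 24 h (-1.999 ± 0.12). Pck2, the mitochondrial PEP carboxykinase, measured 15.3 and 14.02 TPM at 0 h and 1.52 and 3.40 at 24 h (-2.23 ± 0.26). Asns, the asparagine synthetase and a textbook ATF4 target, was not called without the block, and with it was called lower on the spike-in scale (-0.62, adjusted p = 0.0264). It measured 308 and 381 TPM at 0 h and 289 and 378 at 24 h, the groups overlapped and the log2 fold change was -0.05 ± 0.15 (adjusted p = 0.853). Its promoter match, shown above, is to the same motif as those of Chac1 and Pck2.

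**Figure D2:**
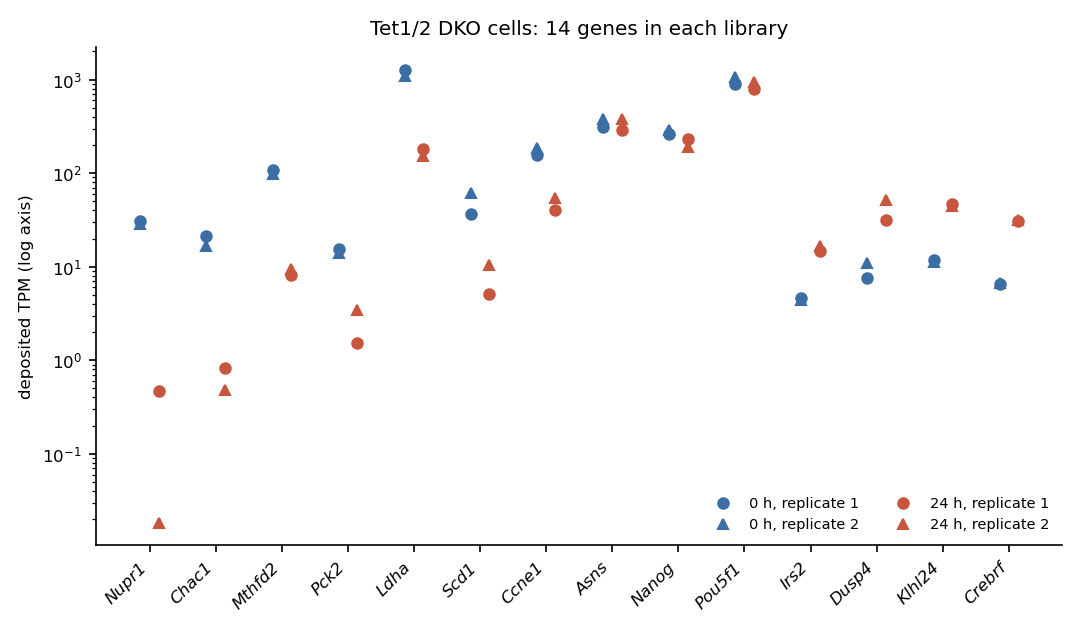
Deposited TPM on a log axis of 14 genes in the 4 libraries of Tet1/2 DKO cells, blue at 0 h and red at 24 h, circles for replicate 1 and triangles for replicate 2. The 7 genes at the left lie lower at 24 h, Asns and Pou5f1 overlap between the times, Nanog is not called, and the 4 genes at the right lie higher.

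Of the genes that charge tRNAs with amino acids or carry these across membranes, many fell. Of 20 cytosolic aminoacyl-tRNA synthetases, which load tRNAs, 17 fell and 1 rose (median -0.72). On the spike-in scale 17 were called lower and 0 higher. Nars measured 279 and 262 TPM at 0 h and 103 and 105 at 24 h and Cars 133 and 116 TPM at 0 h and 53.4 and 49.6 at 24 h, in each case with both treated libraries at less than 50% of both untreated ones. Qars was the exception, at 91.5 and 99.6 TPM at 0 h and 124 and 118 at 24 h (0.34 ± 0.08, adjusted p = 0.0118; -0.23 ± 0.28 on the spike-in scale), and it was not called without DKO 0 h replicate 1 or DKO 24 h replicate 1. Of 27 amino acid transporters, 10 fell and 0 rose (median -0.14; spike-in scale 12 lower). Slc1a4, a carrier of small neutral amino acids, measured 14.1 and 12.8 TPM at 0 h and 2.54 and 1.83 at 24 h (-2.19 ± 0.15). Slc7a5, the leucine exchanger, measured 141 and 127 TPM at 0 h and 53.5 and 58.6 at 24 h (-1.24 ± 0.09). Both fell, without overlap, whereas Slc1a1 measured 4.17 and 7.88 TPM at 0 h and 7.69 and 19.4 at 24 h and did not pass the test (adjusted p = 0.0672; 0.00415 with the block).

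Glycolytic and hypoxia-inducible genes made up the next large group. Of 31 measured members 21 fell and 1 rose, Pdk1 by name, with a median of -1.03. On the spike-in scale 23 were called lower and 0 higher. Ldha, lactate dehydrogenase A, measured 1277 and 1100 TPM at 0 h and 180 and 151 at 24 h (-2.84 ± 0.20, adjusted p = 3.36e-05). Tpi1, triosephosphate isomerase, measured 187 and 160 TPM at 0 h and 25.3 and 17.9 at 24 h (-2.96 ± 0.20). The lactate carrier Slc16a3 measured 20.3 and 21.5 TPM at 0 h and 2.98 and 4.11 at 24 h (-2.28 ± 0.16). In all of them both treated libraries were at less than 25% of both untreated ones, and Pgam1, at 521 and 525 TPM at 0 h and 213 and 187 at 24 h, fell less (-1.38 ± 0.09).

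Genes of lipid synthesis, which SREBP factors serve, were called in 1 direction. Of 23 cholesterol synthesis genes 20 fell and 0 rose (median -0.80, spike-in scale 20 lower), and of 15 fatty acid synthesis genes 9 fell and 0 rose (median -0.54, spike-in scale 10 lower). Scd1, the stearoyl-CoA desaturase, measured 36.4 and 62.1 TPM at 0 h and 5.16 and 10.4 at 24 h (-2.54 ± 0.33, adjusted p = 0.000573). Fads2, another desaturase, measured 35.8 and 48.3 TPM at 0 h and 9.70 and 12.01 at 24 h (-1.85 ± 0.21). Smaller fold changes, whose difference from the desaturases was not tested, were those of the fatty acid synthase gene Fasn, at 165 and 169 TPM at 0 h and 76.9 and 92.3 at 24 h (-0.98 ± 0.12), and Acly, which supplies acetyl-CoA, at 232 and 239 TPM at 0 h and 130 and 134.3 at 24 h (-0.83 ± 0.08). In the cholesterol pathway Idi1 measured 34.6 and 36.8 TPM at 0 h and 13.2 and 11.8 at 24 h (-1.44 ± 0.15). Sqle, which oxidises squalene, measured 68.3 and 81.3 TPM at 0 h and 34.2 and 35.7 at 24 h (-1.07 ± 0.11). Fatty acid oxidation was mixed, with 4 of 21 genes higher and 5 lower, against 0 and 5 on the spike-in scale. Its count of lower genes was 2 without DKO 0 h replicate 2 or DKO 24 h replicate 1. Cpt1a, the carnitine shuttle enzyme that admits fatty acids to mitochondria, rose from 19.3 and 21.02 to 50.6 and 40.4 TPM (1.13 ± 0.14). Its spike-in change of 0.59 ± 0.34 was not called.

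Of 30 genes of serine, folate and nucleotide synthesis 23 fell and 0 rose (median -0.55; spike-in scale 24 lower), a list that shares Mthfd2 and Psat1 with the ATF4 list. Rrm2, the regulated subunit of ribonucleotide reductase, measured 274 and 310 TPM at 0 h and 135 and 138 at 24 h (-1.09 ± 0.11). Prps2, which makes the ribose phosphate donor, measured 45.96 and 51.1 TPM at 0 h and 19.4 and 22.6 at 24 h (-1.17 ± 0.12). Mthfd1, the cytoplasmic counterpart of Mthfd2, measured 203 and 209 TPM at 0 h and 224 and 242 at 24 h and did not pass (adjusted p = 0.154).

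**Figure D3:**
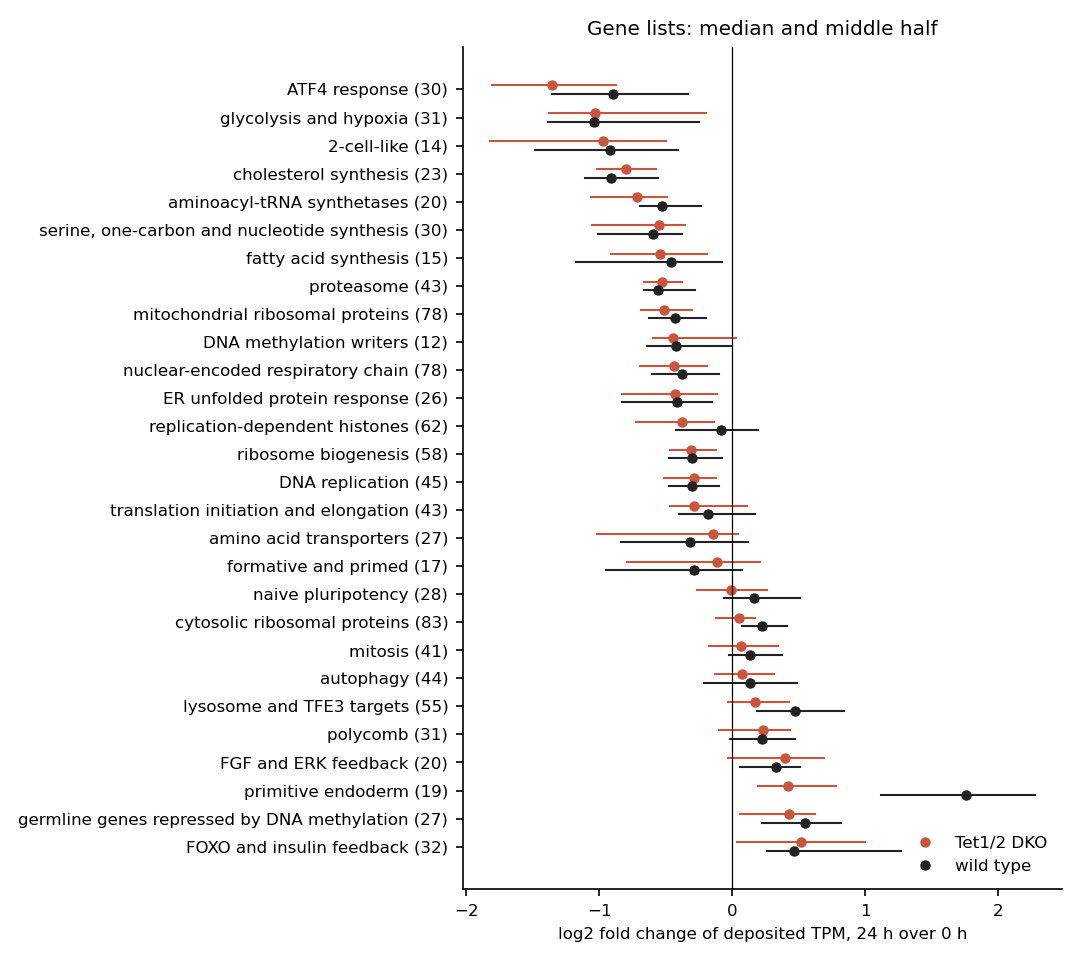
Median (point) and range from the 25th to the 75th percentile (line) of the log2 fold change of deposited TPM over the tested members of 28 gene lists, number of members in parentheses, in Tet1/2 DKO cells (red) and wild-type cells (black). The lowest DKO median is that of the ATF4 list at -1.35 and the highest that of the FOXO and insulin list at 0.52, and the genotypes lie farthest apart for primitive endoderm, at 0.42 and 1.76, where the DKO median turns to -0.04 on the spike-in scale.

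Genes of protein synthesis differed by group. Of 83 cytosolic ribosomal protein genes 4 rose and 5 fell, with a median of 0.05. The counts were 20 higher and 2 lower after rescaling to protein-coding genes, and 0 higher and 9 lower on the spike-in scale (27 lower with the block). Larger shares of all genes were lower on the spike-in scale, 18.7%, or 6943 of 18232 with the block. Of 78 mitochondrial ribosomal protein genes 50 fell and 2 rose (median -0.51), and Mrpl12 measured 133.7 and 146 TPM at 0 h and 57.5 and 58.9 at 24 h (-1.25 ± 0.08). Of 58 ribosome biogenesis genes 27 fell and 1 rose (median -0.31), and Nop16 measured 58.6 and 63.4 TPM at 0 h and 25.4 and 26.6 at 24 h (-1.20 ± 0.13). Of 43 translation factors 17 fell and 3 rose (median -0.28), with Eif5a at 1315 and 1494 TPM at 0 h and 633 and 740 at 24 h (-1.03 ± 0.15). In these last 3 lists 60, 31 and 19 genes were called lower and 0 higher on the spike-in scale. Without DKO 0 h replicate 2 the lower genes numbered 27 for mitochondrial ribosomal proteins, 11 for ribosome biogenesis, 10 for translation factors and 2 for cytosolic ribosomal proteins. Without DKO 24 h replicate 1 they numbered 32 for the mitochondrial and 2 for the cytosolic ribosomal proteins, without DKO 0 h replicate 1 they numbered 3 for the cytosolic ones, and without DKO 24 h replicate 2 they numbered 15 for ribosome biogenesis.

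Protein breakdown and folding fell in part. Of 43 proteasome genes 31 fell and 0 rose (median -0.53), and the subunit Psmd14 measured 166 and 188 TPM at 0 h and 89.5 and 84.5 at 24 h (-1.02 ± 0.10). Of 26 genes of the unfolded protein response of the endoplasmic reticulum 15 fell and 1 rose (median -0.43), with Herpud1 at 21.1 and 17.7 TPM at 0 h and 3.68 and 2.75 at 24 h (-2.28 ± 0.16). Of 30 heat shock chaperones 11 fell and 0 rose, and Hspd1, the mitochondrial chaperonin, measured 1094 and 1193 TPM at 0 h and 574 and 597 at 24 h (-0.96 ± 0.12). The spike-in scale called 37, 16 and 17 genes of these lists lower. The chaperones that fell numbered 6 without DKO 0 h replicate 2 and 7 without DKO 24 h replicate 1.

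Respiratory chain genes fell in part. Of 78 nuclear-encoded subunits 37 fell and 1 rose (median -0.44), and 58 were called lower on the spike-in scale. Uqcrq of complex III measured 129 and 133.9 TPM at 0 h and 37.6 and 56.4 at 24 h (-1.49 ± 0.21). Atp5g3 of the ATP synthase measured 547 and 536 TPM at 0 h and 275 and 240 at 24 h (-1.07 ± 0.09). Neither had overlapping groups. Of 13 mitochondrially encoded genes 4 fell and 0 rose, and 2 fell without DKO 0 h replicate 2 or DKO 24 h replicate 2, when mt-Nd1 was not called. By spike-in values 6 were lower, and 12 with the block. mt-Nd1 measured 4968 and 6478 TPM at 0 h and 3193 and 2684 at 24 h (-0.95 ± 0.21), whereas mt-Co3 measured 2857 and 2757 TPM at 0 h and 3956 and 2420 at 24 h, with overlapping groups (adjusted p = 0.789). The nuclear-encoded subunits that fell numbered 24 without DKO 0 h replicate 2 and 22 without DKO 24 h replicate 1.

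Gene length moved with these calls. Among protein-coding genes split into 5 equal groups by exonic length, 26.4% of the shortest (up to 2364 bases) fell and 6.95% rose, while 8.05% of the longest (from 7505 bases) fell and 22.6% rose. The median log2 fold change went from -0.22 over -0.07, -0.02 and 0.06 to 0.16 from the shortest to the longest group in DKO cells. In wild-type cells it went from -0.16 to 0.17. Short genes were common in several of the lists: 56 of 78 respiratory chain genes, 39 of 78 mitochondrial ribosomal protein genes, 55 of 83 cytosolic ribosomal protein genes and 58 of 62 replication-dependent histone genes were in the shortest group. The part of length in the changes of these lists was not tested.

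**Figure D4:**
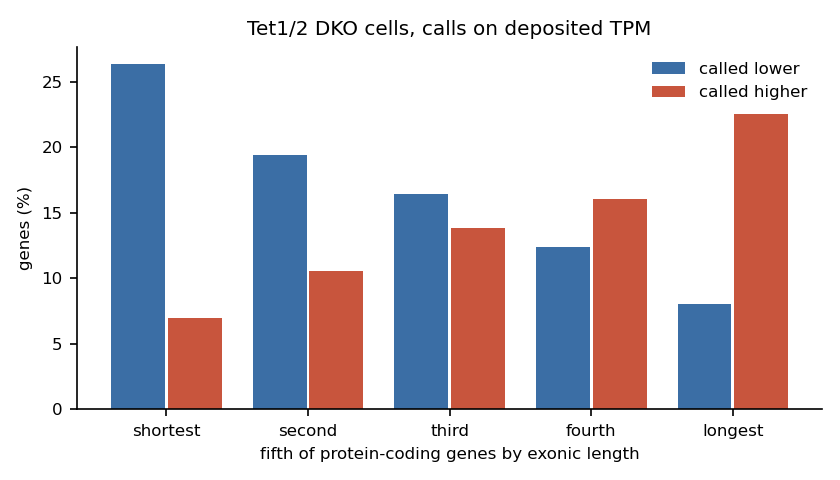
Percentage of protein-coding genes called lower (blue) and higher (red) on deposited TPM at 24 h in Tet1/2 DKO cells, in 5 equal groups of exonic length. Lower calls drop from 26.4% to 8.05% and higher calls climb from 6.95% to 22.6% from the shortest to the longest group.

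Cell cycle genes moved in both directions. Among G1 cyclins, Ccne1 measured 154 and 184 TPM at 0 h and 40.4 and 54.3 at 24 h (-1.83 ± 0.19, adjusted p = 0.0002). Ccnd1 measured 51.2 and 63.4 TPM at 0 h and 11.9 and 22.2 at 24 h (-1.75 ± 0.34) and Ccnd2 5.23 and 4.91 TPM at 0 h and 0.937 and 1.28 at 24 h (-1.53 ± 0.22). Every treated library lay below every untreated library for these 3 cyclins. In their list of 25 genes 7 fell, 17 did not pass and 1 rose. The latter was the inhibitor Cdkn1b at 10.7 and 8.83 TPM at 0 h and 19.2 and 16.2 at 24 h (0.80 ± 0.15), which was not called on the spike-in scale (0.28 ± 0.35). Of 45 DNA replication genes 20 fell and 2 rose (median -0.29). Tk1, thymidine kinase, measured 75.1 and 78.9 TPM at 0 h and 21.4 and 28.0 at 24 h (-1.61 ± 0.14). The origin factor Cdc6 measured 46.7 and 56.4 TPM at 0 h and 24.4 and 26.3 at 24 h (-0.99 ± 0.12). Of 41 mitosis genes 10 rose and 3 fell, although on the spike-in scale 0 were higher and 5 lower, or 19 lower with the block. On that scale 18.7% of all genes were lower, or 6943 of 18232 with the block. The long kinetochore gene Cenpf measured 46.4 and 52.1 TPM at 0 h and 81.1 and 85.3 at 24 h (0.75 ± 0.08, and 0.19 ± 0.27 on the spike-in scale). The mitotic kinase Aurka, at 104 and 119 TPM at 0 h and 77.5 and 75.03 at 24 h, fell (-0.54 ± 0.09). Of 62 replication-dependent histone genes 19 fell and 0 rose, with Hist1h2bm at 415 and 474 TPM at 0 h and 174 and 168 at 24 h (-1.37 ± 0.11). With the block 28 fell and 2 rose, among them Hist2h2aa1 (4.545, adjusted p = 0.02085, and 4.601 on the spike-in scale, adjusted p = 0.0008941). On spike-in values 11 genes of the G1 list, 28 of the replication list and 39 histone genes were lower. Without DKO 24 h replicate 1 the falls numbered 4, 12 and 11, and without DKO 0 h replicate 2 those of replication and histone genes numbered 9 and 10. Without DKO 0 h replicate 1 the mitosis genes that rose numbered 6.

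In the FOXO and insulin feedback list 14 of 32 measured members rose, 2 fell and 16 did not pass (median 0.52). On the spike-in scale 0.505% of all genes were higher and 18.7% lower, or 356 and 6943 of 18232 with the block. On spike-in values 4 of the list were called higher and 3 lower (median 0.04), and 8 and 7 with the block. That median was 0.31 without DKO 0 h replicate 1, -0.10 without DKO 0 h replicate 2, -0.32 without DKO 24 h replicate 1, where 8 were lower, and 0.56 without DKO 24 h replicate 2. The 4 that were higher on both scales were Crebrf, Klhl24, Zbtb20 and Irs2. Crebrf, a regulator of the CREB3 family whose promoter is printed above, measured 6.50 and 6.67 TPM at 0 h and 30.7 and 31.7 at 24 h (2.09 ± 0.12, adjusted p = 1.87e-05, and 1.62 ± 0.31 on the spike-in scale). Klhl24, an adaptor of ubiquitin ligases, measured 11.7 and 11.1 TPM at 0 h and 47.2 and 44.8 at 24 h (1.92 ± 0.13, adjusted p = 2.73e-05). Irs2, which couples the insulin receptor to PI3 kinase, measured 4.59 and 4.37 TPM at 0 h and 14.6 and 16.6 at 24 h (1.60 ± 0.15, adjusted p = 0.000128). The libraries of a group lay close together for these genes and the groups were far apart. Foxo4 went the other way, at 41.2 and 45.6 TPM at 0 h and 25.6 and 31.7 at 24 h (-0.59 ± 0.12, adjusted p = 0.00543).

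Further genes among the 15 largest rises on the spike-in scale came from other lists or none. Dusp4, a phosphatase of ERK, measured 7.55 and 11 TPM at 0 h and 31.3 and 52.2 at 24 h (2.03 ± 0.21, adjusted p = 0.0002, and 1.54 ± 0.28 on the spike-in scale). Of its list of 20 FGF and ERK feedback genes 6 rose (10 with the block) and 2 fell, against 1 higher and 2 lower on the spike-in scale, and 3 rose without DKO 0 h replicate 1. Arhgef28 had the largest rise of the 15 chosen by size, at 2.82 and 5.84 TPM at 0 h and 15.9 and 35.4 at 24 h (2.28 ± 0.36; 1.88 ± 0.32 on the spike-in scale). Ly6g6e measured 8.79 and 11.4 TPM at 0 h and 40.2 and 42.3 at 24 h (1.94 ± 0.11). The pseudogene Btnl7-ps measured 2.14 and 1.81 TPM at 0 h and 10.6 and 11.3 at 24 h (2.01 ± 0.12). Kdr, a VEGF receptor, measured 0.754 and 3.17 TPM at 0 h and 4.37 and 17.1 at 24 h, with replicate 2 above replicate 1 at both times, and passed on the spike-in scale (adjusted p = 0.0265) but not on deposited TPM (adjusted p = 0.0505). With the replicate numbers as a block it also passed on deposited TPM (adjusted p = 0.00641).

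Large falls outside the metabolic lists included Fgf15, a secreted growth factor, at 6.20 and 7.29 TPM at 0 h and 0.351 and 0.805 at 24 h (-2.31 ± 0.20). Gng3, a G protein subunit, measured 19.02 and 21.9 TPM at 0 h and 1.65 and 3.27 at 24 h (-2.67 ± 0.22). Gap43 is a growth cone protein and measured 4.95 and 12.1 TPM at 0 h and 0.265 and 1.04 at 24 h (-2.46 ± 0.46). The imprinted gene Phlda2 measured 64.6 and 47.5 TPM at 0 h and 10 and 8.44 at 24 h (-2.47 ± 0.35). Cbr3, a carbonyl reductase, measured 9.68 and 9.05 TPM at 0 h and 0.770 and 1.16 at 24 h (-2.40 ± 0.29). Calca, the calcitonin gene, measured 12.3 and 14.6 TPM at 0 h and 1.45 and 2.05 at 24 h (-2.40 ± 0.24). None of these 6 genes had overlapping groups, but lack of overlap was a condition of the rule for the 15 largest falls, here and above. Pagr1b, which lost its call without any 1 of the 4 libraries, was listed at 0 in both treated libraries after 13.8 and 13.2 TPM at 0 h, but it shares its place and strand with Pagr1a and Mvp, so its reads are uncertain.

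Lysosomal and autophagy genes rose only in part in DKO cells. Of 55 members of the lysosome and TFE3 list 15 rose and 5 fell (median 0.18). On spike-in values 0 were higher and 5 lower, and the counts were 2 and 14 with the block and 11 and 7 after centring on the library median. The genes that rose numbered 8 without DKO 0 h replicate 2 and 6 without DKO 24 h replicate 1, and those that fell 2 to 3 without DKO 0 h replicate 1, DKO 0 h replicate 2 or DKO 24 h replicate 2. Grn, progranulin, measured 32.6 and 31.1 TPM at 0 h and 79.5 and 70.6 at 24 h (1.21 ± 0.12, adjusted p = 0.000153). Tpp1, a lysosomal peptidase, measured 16.5 and 15.8 TPM at 0 h and 34.6 and 29.6 at 24 h (0.94 ± 0.14). The calcium channel Mcoln1 measured 20.4 and 16.6 TPM at 0 h and 42.5 and 32.8 at 24 h (0.98 ± 0.15). For these genes both treated libraries lay above both untreated ones, and the spike-in changes of 0.66 ± 0.32, 0.41 ± 0.33 and 0.45 ± 0.35 were not called, although with the block Grn was (adjusted p = 0.0257). Gusb, the lysosomal glucuronidase, fell from 21.2 and 16.2 to 10.1 and 6.995 TPM (-1.06 ± 0.22). Of 44 autophagy genes 9 rose and 6 fell, against 0 and 6 on the spike-in scale (3 and 17 with the block), beside 11.6% and 13.3% of all genes on deposited TPM and 0.505% and 18.7% on the spike-in scale. The share that fell on deposited TPM is near that of all genes, and those that fell numbered 1 without DKO 0 h replicate 1 and 2 without DKO 24 h replicate 2. The initiating kinase Ulk1 measured 64.5 and 53.3 TPM at 0 h and 148 and 104 at 24 h (1.06 ± 0.20). The receptor Calcoco1 measured 23.6 and 26.1 TPM at 0 h and 62.5 and 64.5 at 24 h (1.32 ± 0.12), and the block called it higher on the spike-in scale (adjusted p = 0.0125). Of 43 genes of the mTOR complexes and nutrient sensors 6 rose and 10 fell, against 0 and 11 on the spike-in scale (0 and 18 with the block), to be read against the same shares of all genes. Mtor itself measured 30.3 and 30.4 TPM at 0 h and 41.6 and 43.3 at 24 h (0.47 ± 0.09, adjusted p = 0.00322). Deptor, an inhibitory partner of mTOR, measured 14.6 and 18.6 TPM at 0 h and 23.5 and 31.8 at 24 h (0.70 ± 0.15). On the spike-in scale these changes were -0.08 ± 0.29 and 0.16 ± 0.27 and not called, and without DKO 0 h replicate 1 Deptor was not called on deposited TPM either.

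The core pluripotency genes Pou5f1, Sox2, Nanog and Klf4 were not called lower at 24 h by limma on either scale. Pou5f1 measured 890 and 1057 TPM at 0 h and 792 and 932 at 24 h. Nanog measured 259 and 292 TPM at 0 h and 230 and 190 at 24 h. Neither passed the test on deposited TPM (adjusted p = 0.349 and 0.168) or on the spike-in scale (-0.74 ± 0.27 and -0.97 ± 0.34). Of all genes 11.6% rose and 13.3% fell, and on the spike-in scale 0.505% were higher and 18.7% lower. Of 28 naive pluripotency genes 6 rose and 1 fell on deposited TPM, and 0 were higher and 4 lower on the spike-in scale. Without 1 of the 4 libraries, whichever it was, the number that rose was 1 to 3. On spike-in values 13 were lower with the replicate numbers as a block and 14 without DKO 24 h replicate 1, Pou5f1 and Nanog among them, and 0 or 1 without any 1 of the other 3 libraries. Pou5f1 and Nanog were also called lower on that scale with the replicate numbers as a block (adjusted p = 0.0150 and 0.00387) and when genes averaging under 5 on it were left out. Of all 18232 genes, 6943 were lower there with the block. Without DKO 24 h replicate 1 the median spike-in change was -0.73 for the 28 genes and -0.85 for all genes. Klf4 measured 135 and 96.0 TPM at 0 h and 251 and 166 at 24 h (0.84 ± 0.19). Esrrb, an orphan nuclear receptor, measured 207 and 213 TPM at 0 h and 280 and 299 at 24 h (0.46 ± 0.14), and Sox2 247 and 200 TPM at 0 h and 304 and 270 at 24 h (0.37 ± 0.11). All of them rose on deposited TPM and were not called on the spike-in scale. The calls of Klf4 and Sox2 ended without DKO 0 h replicate 2 or DKO 24 h replicate 1, and that of Esrrb without any 1 of the 4 libraries. Myc overlapped between the groups, at 62.9 and 83.1 TPM at 0 h and 67.4 and 119 at 24 h. Of 17 genes of the formative and primed state 5 fell and 0 rose. With the block 7 fell and 3 rose, Foxd3 among the latter (0.83, adjusted p = 0.0107). Lef1, the WNT effector, measured 11.3 and 10.5 TPM at 0 h and 3.04 and 3.63 at 24 h (-1.46 ± 0.21). The DNA methyltransferase gene Dnmt3a measured 61.0 and 53.8 TPM at 0 h and 27.1 and 27.8 at 24 h (-1.03 ± 0.22).

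Writers and maintainers of DNA methylation fell in part, 5 of 12 with 0 higher (median -0.44; spike-in scale 6 lower), and 2 or 3 without DKO 0 h replicate 2, DKO 24 h replicate 1 or DKO 24 h replicate 2. Besides Dnmt3a, Uhrf1, which guides maintenance methylation, measured 223 and 313 TPM at 0 h and 150 and 193 at 24 h (-0.63 ± 0.18). Trim28, the corepressor at imprints and retroviruses, measured 1331 and 1278 TPM at 0 h and 1012 and 1008 at 24 h (-0.37 ± 0.10). Both treated libraries were below both untreated ones for these genes. Among partners of the TET pathway, the glycosylase Tdg fell from 35.2 and 40.4 to 28.3 and 25.7 TPM (-0.47 ± 0.10). Ogt, which binds TET proteins, rose from 74.3 and 82.6 to 138 and 104 TPM (0.61 ± 0.14), though its spike-in change was 0.04 ± 0.32. The Ogt call ended without DKO 0 h replicate 1 or DKO 24 h replicate 1, that of Tdg without DKO 0 h replicate 2, that of Uhrf1 without DKO 0 h replicate 2 or DKO 24 h replicate 1, and that of Trim28 without any 1 of the 4 libraries. Of 27 germline genes that DNA methylation silences 8 rose and 1 fell (median 0.43), against 1 higher and 2 lower on the spike-in scale, and 5 rose without DKO 0 h replicate 1 or DKO 0 h replicate 2. Taf7l, a germ cell TFIID subunit, passed on both scales, at 4.77 and 4.04 TPM at 0 h and 21.3 and 12.9 at 24 h (1.71 ± 0.22, and 1.28 ± 0.39 on the spike-in scale). Ddx4, a germ cell helicase, measured 12.01 and 10.8 TPM at 0 h and 21.3 and 19.4 at 24 h (0.79 ± 0.11).

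Of 14 genes of the 2-cell-like state 6 fell, 0 rose and 8 did not pass (median -0.97; spike-in scale 9 lower). Zscan4d measured 9.44 and 5.09 TPM at 0 h and 1.33 and 1.06 at 24 h (-1.86 ± 0.38, adjusted p = 0.00548). Zscan4f measured 24.9 and 12.4 TPM at 0 h and 4.89 and 2.23 at 24 h (-2.09 ± 0.45). Zscan4f was not called without DKO 0 h replicate 1 or DKO 24 h replicate 2. In both genes replicate 1 was above replicate 2 at each time and the groups did not overlap. The Zscan4 genes are near-identical copies, so reads may be split among them and their single values are uncertain. Without DKO 0 h replicate 1 or DKO 24 h replicate 2 the count of lower genes of this list was 2, and without the former its median was -0.57.

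The DKO response was close in direction to that of wild-type cells, which share no library with it. In wild-type cells 2883 genes rose (15.8%) and 2563 fell (14.1%) on deposited TPM. On the spike-in scale 227 were higher and 1592 lower in wild-type cells, or 817 and 4693 with the block. The overlap of the genotypes was counted on deposited TPM only. Of the genes that rose in DKO cells 1760 also rose in wild-type cells and 0 fell, and of those that fell 1873 also fell and 2 rose. A test of the difference between the responses called 1 gene on the spike-in scale (0.00548%) and, by limma, 0 on deposited TPM, where 706 genes had an unadjusted p under 0.05 (3.87%). With the replicate numbers as a block, 17 gene identifiers were called on the spike-in scale (0.0932%) and 1 on deposited TPM.

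The gene called without the block was Nupr1. It measured 19.3 and 20.9 TPM at 0 h and 5.02 and 9.01 at 24 h in wild-type cells, against 30.8 and 28.6 TPM at 0 h and 0.470 and 0.0183 at 24 h in DKO cells, so the wild-type libraries kept part of the transcript and the DKO libraries almost none. The difference of the log2 fold changes, DKO minus wild type, was -3.90 ± 0.59 on the spike-in scale (adjusted p = 0.0346) and -3.21 ± 0.40 on deposited TPM (adjusted p = 0.081). Without wild-type 0 h replicate 2 or wild-type 24 h replicate 2, with a pseudocount of 0.1 or after centring, 0 genes were called on the spike-in scale. Across the ATF4 list 14 of 30 members had an unadjusted p under 0.05 for the difference, beside 3.87% of all genes. In all 14 the DKO fall was the larger, and 29 of 30 were fitted on that side. Members of a list come from the same libraries, so such counts do not replicate the difference, here and for the lists compared below. Chac1 measured 20.2 and 21.9 TPM at 0 h and 5.61 and 6.49 at 24 h in wild-type cells (difference -1.94 ± 0.33, adjusted p = 0.326) and Atf4 206 and 185 TPM at 0 h and 111 and 114 at 24 h (difference -0.79 ± 0.12). Of 20 aminoacyl-tRNA synthetases 8 were past the same unadjusted threshold, in each with the larger DKO fall, and of 27 amino acid transporters 5. The spike-in scale, where 1.22% of all genes were past it, gave 11 of 30 for the ATF4 list but only 1 of 20 for the synthetases and 2 of 27 for the transporters. Apart from Nupr1 none of these passed after adjustment without the block.

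**Figure D5:**
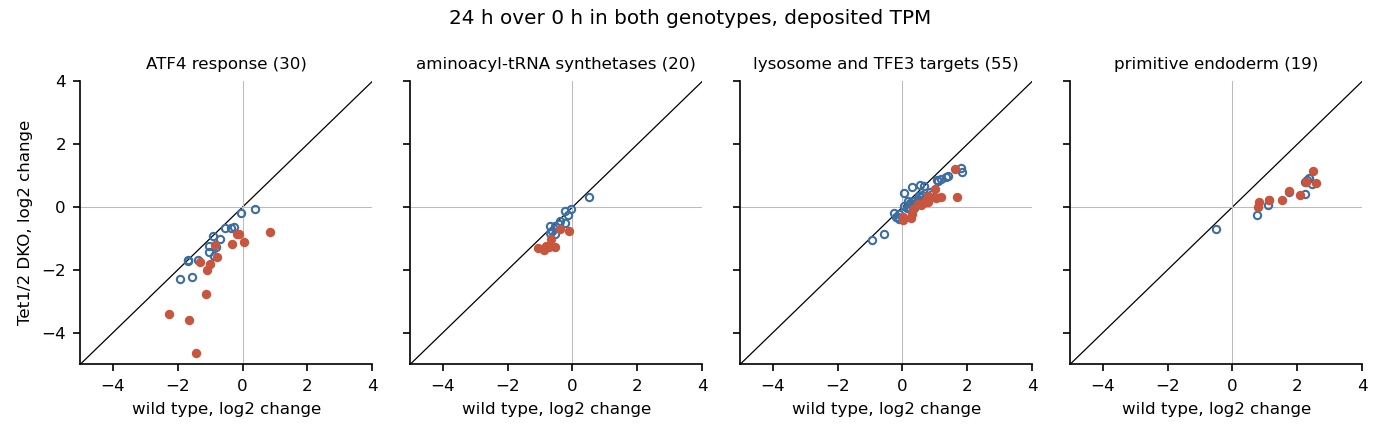
Log2 fold change of deposited TPM, 24 h over 0 h, in wild-type cells (horizontal) and Tet1/2 DKO cells (vertical) for the members of 4 gene lists, with the line of equal change. Filled red points have an unadjusted p under 0.05 for the difference (14 of 30, 8 of 20, 18 of 55 and 10 of 19), and all of them lie below the line.

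The lysosome list was compared in the same way. In wild-type cells 33 of its 55 members rose and 2 fell (median 0.48), against 15 and 5 in DKO cells (median 0.18). On the spike-in scale 3 were higher and 2 lower in wild-type cells (12 and 2 with the block). In DKO cells these were 0 and 5, or 2 and 14 with the block. Of its members, 18 had an unadjusted p under 0.05 for the difference, in all 18 with the DKO change below the wild-type change. On spike-in values 1 of 55 did, close to the 1.22% of all genes, and the medians were -0.36 in DKO and 0.11 in wild-type cells. The lowest adjusted p in the list on deposited TPM was 0.999, so no single lysosomal gene was called. Grn measured 30.2 and 33.4 TPM at 0 h and 88.8 and 112 at 24 h in wild-type cells (difference -0.41 ± 0.17).

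Primitive endoderm genes showed the widest gap between the genotypes in list medians. In wild-type cells 16 of 19 members rose, with a median log2 fold change of 1.76, and in DKO cells 1 did, with a median of 0.42. With the replicate numbers as a block these counts were 17 and 2, Gata6 being the gene added in DKO cells. On the spike-in scale 8 were higher and 0 lower in wild-type cells, or 15 and 1 with the block. In DKO cells 0 were higher and 1 lower there, or 1 and 2 with the block. Compared within each numbered pair, 14 of the 19 were higher at 24 h in both DKO pairs and 2 lower in both, against 18 and 0 in wild-type cells. By spike-in values 6 were higher and 7 lower in both DKO pairs, against 18 and 1 in wild-type cells. The DKO median was 0.74 without DKO 0 h replicate 1, 0.08 without DKO 0 h replicate 2 and 0.26 without DKO 24 h replicate 1, with 2, 0 and 2 genes higher. By spike-in values the medians were -0.04 in DKO and 1.60 in wild-type cells, and the DKO one went from -0.61 without DKO 24 h replicate 1 and -0.54 without DKO 0 h replicate 2 to 0.46 without DKO 0 h replicate 1 and 0.32 without DKO 24 h replicate 2. The gene that rose in DKO cells was Lama1, a basement membrane laminin, at 41.4 and 27.8 TPM at 0 h and 78.1 and 73.9 at 24 h (1.14 ± 0.26, adjusted p = 0.00975; not called on the spike-in scale at 0.59 ± 0.35, where the block gave adjusted p = 0.0450), against 38.9 and 53.5 TPM at 0 h and 314 and 219 at 24 h in wild-type cells. Col4a1, a basement membrane collagen, measured 47.8 and 59.9 TPM at 0 h and 58.1 and 86.2 at 24 h in DKO cells and 46.05 and 43.9 TPM at 0 h and 272 and 141 at 24 h in wild-type cells. Its neighbour Col4a2 measured 22.9 and 23.6 TPM at 0 h and 33.7 and 48.1 at 24 h in DKO cells and 16.6 and 19.3 TPM at 0 h and 144 and 86.3 at 24 h in wild-type cells. The difference was -1.70 ± 0.40 and -1.81 ± 0.36 (adjusted p = 0.733 and 0.48, and with the block on the spike-in scale 0.0165 and 0.0165). For 10 of the 19 members the unadjusted p of the difference was under 0.05 (9 on the spike-in scale), and all 19 were fitted with the DKO change below the wild-type change. The transcription factor Gata6, the key regulator of this lineage and named here after its values were seen, measured 6.62 and 2.06 TPM at 0 h and 13.9 and 4.77 at 24 h in DKO cells and 1.71 and 4.51 TPM at 0 h and 12.4 and 28.1 at 24 h in wild-type cells. In DKO cells replicate 1 was above replicate 2 at both times, and in wild-type cells replicate 2 was above replicate 1. The DKO change passed on deposited TPM with the block (0.94 ± 0.64 and adjusted p = 0.328 without it, adjusted p = 0.0157 with it). The difference for Gata6 did not pass (unadjusted p = 0.151).

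Few genes of the other lineage lists passed the test, and the shares that rose below stand beside 11.6% of all genes. Of 16 trophectoderm genes (median 0.16) 1 rose, Bmp4 at 9.49 and 19.3 TPM at 0 h and 22.6 and 42.7 at 24 h (1.14 ± 0.37), with replicate 2 above replicate 1 at each time and no call on the spike-in scale (0.62 ± 0.32). Bmp4 was not called without DKO 0 h replicate 1, DKO 24 h replicate 2 or either wild-type 0 h library, and the median of the list went from 0.0026 without DKO 24 h replicate 2 to 0.33 without DKO 24 h replicate 1. Of 8 neuroectoderm genes (median -0.34; spike-in scale 3 lower) 2 fell, Tubb3 at 59.7 and 70.5 TPM at 0 h and 24.5 and 21.6 at 24 h (-1.46 ± 0.14) and Nes at 9.44 and 8.04 TPM at 0 h and 2.94 and 4.16 at 24 h (-1.11 ± 0.18). Of 6 mesendoderm genes (median 0.49) 1 rose, Wnt3a at 0.140 and 0.463 TPM at 0 h and 0.925 and 1.32 at 24 h (0.71 ± 0.19), a level near the bottom of what was tested and with no call on the spike-in scale (0.78 ± 0.36). Wnt3a was not called without DKO 0 h replicate 1 or DKO 24 h replicate 2, and the block added T, the brachyury gene, on deposited TPM (0.55, adjusted p = 0.0273).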

How the data were processed

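RNA was measured in 14 libraries, 2 for each of 7 groups of genotype and time, of which 4 make up the comparison described here. Per the labels, the authors trimmed reads with cutadapt 2.4, aligned them with STAR 2.7.3a to mm10 and estimated abundance with StringTie 2.0; the deposited unit is TPM per gene, strand settings are not given in the sources used here, and the read depth was not used here. Rows of 1 gene identifier were summed. Spike-in normalized TPM were obtained as the deposited TPM times 1 factor per library, recovered from the study's normalized values. A gene entered the fit when its spike-in normalized values averaged 1 or more across all 14 libraries (18232 of 54446), and log2(value + 1) was fitted with limma 3.58.1 (R 4.3.3, mean-variance trend) over the 7 groups, with Benjamini-Hochberg adjustment and a threshold of 0.05. The fit was tested on simulated data.

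Reads of genes that overlap on the other strand, such as Tpi1, Pck2, Tk1, Col4a1 and Col4a2, may not be told apart. The labels number the replicates, and the study states that time points of a replicate were handled in parallel. Deviations of same-numbered DKO libraries correlated across genes at r = 0.341, 0.305 and 0.222 on the spike-in scale, so the numbers were taken as pairing and the block was run as an alternative. The study speaks of independent biological replicates, and the labels do not say what separated the libraries of a group. The genes named were the 15 largest rises called on the spike-in scale and the 15 largest falls called on both scales (without overlap between the groups, at least 200 bases long, predicted genes left out), genes whose response differed between genotypes, up to 6 members of each described list and 9 core genes. The members and the 50 gene lists were chosen with earlier results of these data known. Alternatives were another pseudocount and filter, no trend, centring, the block, fewer libraries, leaving out each of the 8 libraries at 0 h and 24 h (those at later times stayed in), and rescaling to protein-coding genes.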

Additional observations from a re-analysis of the deposited data

Results flagged for a closer look

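The 24 h change in DKO cells was set against that in wild-type cells for every gene, and 17 identifiers passed a test of that difference on the spike-in scale with the replicate numbers as a block, of which Nupr1 (DKO minus wild type -3.90 on the log2 scale) also passed without it.

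Among protein-coding genes the DKO change was the lower one for Chac1 (-2.45), Col4a1 (-1.90), Col4a2 (-2.02), B2m (-1.93) and Kdelr3 (-1.80). B2m, the light chain of MHC class I, measured 12.7 and 9.38 TPM at 0 h and 7.76 and 6.35 at 24 h in DKO cells and 5.62 and 5.68 TPM at 0 h and 11.01 and 15.6 at 24 h in wild-type cells. Kdelr3, a retrieval receptor of the endoplasmic reticulum, measured 21.7 and 22.6 TPM at 0 h and 20.0 and 20.1 at 24 h in DKO cells and 9.26 and 7.66 TPM at 0 h and 26.7 and 22.0 at 24 h in wild-type cells, and it alone also passed on deposited TPM with the block. B2m and Kdelr3 each overlap another gene on the other strand, Patl2 and Ddx17.

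The identifiers that remain hold uncertain values. The 2 identifiers of Nnt differed by -3.13 and 3.04, and Gm38431 and Fdx1l, which overlap each other, by -5.09 and 3.06. The small RNA genes Snora26 (2.10) and Mir5106 (2.19) lie inside other genes. mt-Rnr1 (5.83), Gm23935 (5.58), Gm24187 (6.86), Gm24270 (8.57) and Gm25911 (6.38) were several times higher in DKO 24 h replicate 1 than in replicate 2 and higher in both wild-type 0 h libraries than in both wild-type 24 h libraries, so the DKO side of each rests on 1 library.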

How the results depend on the processing

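The deposited TPM counts (2109 higher, 2426 lower) were 391 and 725 with only the 4 libraries compared, and ranged from 1289 to 2082 and from 1388 to 2382 when 1 library was left out. The spike-in counts (92 higher, 3408 lower) were 356 and 6943 with the replicate numbers as a block, 12 and 519 with only the libraries compared, 2051 higher after centring on the library median, and 28 to 181 and 760 to 8705 without 1 library. The number of genes with a different response on the spike-in scale (1) was 0 with a pseudocount of 0.1, 11 without the filter, 17 with the block, 2 with only the libraries compared, 0 after centring and 0 to 7 without 1 library. On deposited TPM (0) it was 5 without the filter, 1 with a minimum mean of 5, 1 with the block, 1 with only the libraries compared and 0 to 4 without 1 library. The median log2 fold change of -0.49 was -0.1007 without the filter, 0.0057 on deposited TPM and -0.8514 to -0.1261 without 1 library. Fitting only the libraries compared leaves fewer samples for the spread; the cause of the other moves was not tested.

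Centring raises the spike-in log2 fold changes as a whole. Of the named identifiers, 12 that were fitted below 0 and not called became called higher: Tet3 (0.38), Tfcp2l1 (0.44), Mrpl23 (0.33), Cox7a2l (0.28), Ttk (0.38), Aspm (0.46), Pim1 (0.45), Spred2 (0.41), Spry4 (0.42), Ei24 (0.29), Ep300 (0.42) and Mtor (0.37). Of the 295 named identifiers the block added a call for 22 on the spike-in scale and for 9 on deposited TPM, and changed no other call. Of 253 named identifiers called on deposited TPM, 65 lost the call without at least 1 of the 4 DKO libraries and 188 kept it without each. Rescaling to nuclear protein-coding genes, chosen after the data were seen, moved the median of all genes to 0.12.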
